A study of Homo sapiens with 6 samples.

Results

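Amino acid transporter genes were followed in BT549 cells, an established basal-like breast cancer line, after treatment with AS1842856, a small molecule inhibitor of FOXO1. The 10 genes are SLC7A8, SLC7A5, SLC7A6, SLC7A11, SLC3A2, SLC1A5, SLC38A1, SLC38A2, SLC7A1 and SLC7A2, out of 58735 genes in the count table. They were picked from measured values of this same contrast, because SLC7A8 showed one of its largest increases. Their changes are therefore given as a description. Where the outcome of the fit over all genes is given for them, it is no independent evidence. The design had 2 groups, BT549 cells given the DMSO vehicle and BT549 cells given AS1842856, each with 3 RNA-Seq libraries named A, B and C. Treatment lasted 48 h. The sample labels give a dose of 200 nM and the study's methods give a higher one, which was not resolved here. Both groups were the same line, grown alike, with no other agent or allele named, and the study calls the libraries biological replicates. The study proposes that AS1842856 modulates FOXO1 rather than only inhibiting it. It reports that FOXO1 RNAi lowered LEF1 and TCF7, which the compound raised. Results in a single line treated with a single compound describe that line and that compound, and not loss of FOXO1.

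Amino acids are polar and enter or leave cells through carrier proteins of the SLC families. Several SLC7 proteins, called light chains, reach the plasma membrane only when joined to the heavy chain SLC3A2 (also CD98 or 4F2hc), and these pairs exchange one amino acid for another. Other carriers, such as SLC1A5 and the SLC38 proteins, use the sodium gradient and are main routes for glutamine. In tumor cells these carriers feed protein synthesis, mTORC1 signaling and, through cystine, the making of glutathione.

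Library totals lay between 15289500 and 22981832 counts, and replicates of a group differed by more than sampling noise. All 5 markers of mesenchymal breast lines (VIM, CDH2, FN1, SPARC and CD44) were abundant, at 91.6 CPM (counts scaled to a common library size) or above in every library. With AS1842856, FN1 rose by 1.13 on the log2 scale, while VIM fell by 0.34, CDH2 by 0.19, SPARC by 0.47 and CD44 by 0.45. Of 7 luminal or epithelial markers, ESR1, PGR, CDH1 and EPCAM stayed below 0.5 CPM, while KRT8 fell by 3.31 and KRT18 by 3.30 on the log2 scale with AS1842856 and GATA3 rose by 0.28. Their summed level was 124 to 127 CPM with DMSO and 64.8 to 73.2 CPM with AS1842856. Of 4 blood or endothelial markers, CD68, PECAM1 and CDH5 stayed at or below 0.13 CPM. PTPRC, which encodes CD45, rose by 1.48 on the log2 scale, and the list summed to between 0.807 and 1.69 CPM with DMSO and between 2.70 and 3.59 CPM with AS1842856. The part of these marker changes in the results below was not tested. In bulk RNA a smaller share of cells and less RNA per cell cannot be told apart. RNA of FOXO1, the protein target of the compound, was 3.69, 4.88 and 4.09 CPM with DMSO and 13.8, 13.5 and 14.0 CPM with AS1842856. Its level checks no label, since the compound acts on the protein.

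SLC7A8 (ENSG00000092068) lies on the minus strand at chr14:23125295-23183674 in GRCh38. It encodes LAT2, a light chain that exchanges small and large neutral amino acids and also carries thyroid hormone. RefSeq (GRCh38.p14) gives this gene 4 start sites, and the 250 bases before the first and second are printed because SLC7A8 is the gene on which the choice of genes turned. The 250 bases before the start of SLC7A5, which encodes the related carrier LAT1, stand beside them. Capitals mark letters matching any of 4 motifs searched on both strands, and lower case marks all other letters.
SLC7A8 start 1, chr14:23183661-23183910, minus strand: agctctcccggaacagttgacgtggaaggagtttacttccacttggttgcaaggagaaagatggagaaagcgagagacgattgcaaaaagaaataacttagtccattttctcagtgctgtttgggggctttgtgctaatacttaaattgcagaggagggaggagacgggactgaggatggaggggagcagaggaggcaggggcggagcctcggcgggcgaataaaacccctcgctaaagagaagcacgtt
SLC7A8 start 2, chr14:23155459-23155708, minus strand: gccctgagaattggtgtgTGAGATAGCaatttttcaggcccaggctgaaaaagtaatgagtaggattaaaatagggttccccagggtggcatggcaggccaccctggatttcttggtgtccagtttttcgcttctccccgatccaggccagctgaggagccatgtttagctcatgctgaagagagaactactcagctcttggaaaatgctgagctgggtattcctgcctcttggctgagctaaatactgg
SLC7A5 start 1, chr16:87869508-87869757, minus strand: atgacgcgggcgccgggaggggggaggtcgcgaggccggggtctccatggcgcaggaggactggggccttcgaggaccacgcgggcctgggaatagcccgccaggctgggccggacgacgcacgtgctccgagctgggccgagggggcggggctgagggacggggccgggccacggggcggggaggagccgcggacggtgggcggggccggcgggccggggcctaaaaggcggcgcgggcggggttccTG
The first SLC7A8 stretch holds 14 bases of an annotated SLC7A8 exon, the second lies in an intron of SLC7A8, and the SLC7A5 stretch lies outside annotated genes. Bases G and C made up 51.2% of the first SLC7A8 stretch, 50% of the second and 79.6% of the SLC7A5 stretch. The motifs were the amino acid response element bound by ATF4 (TGATGNAA), the FOXO site (GTAAACA), the TCF/LEF site of WNT signaling (CTTTGAN) and the antioxidant response element (TGANNNNGC). The capitals in the second SLC7A8 stretch are an antioxidant response match. Those at the end of the SLC7A5 stretch are the first letters of such a match that runs past the start site. None of the 4 SLC7A8 windows, each 250 bases before to 50 after a start, held the ATF4, FOXO or TCF/LEF letters, which says only that these letters are not in these windows.

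With DMSO, SLC7A8 had 0, 0 and 2 counts in replicates A, B and C. With AS1842856 it had 145, 242 and 173 counts, or 8.70, 10.6 and 9.70 CPM. The gene went from at or near 0 to a low but even level, and the groups did not overlap. The summed counts, 560 against 2, gave a ratio of 273 after allowing for library size, with an exact 95% interval of 75.2 to 2260. The interval treats reads as independent and leaves out the spread between replicates. Reads here carry no molecular identifiers, so copies of the same molecule could not be set apart. The fitted log2 fold change was 7.84 and was the third highest of 14338 genes tested, but this number rests on the 2 counts of DMSO replicate C. It was 10.52 without that library.

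**Figure D1:**
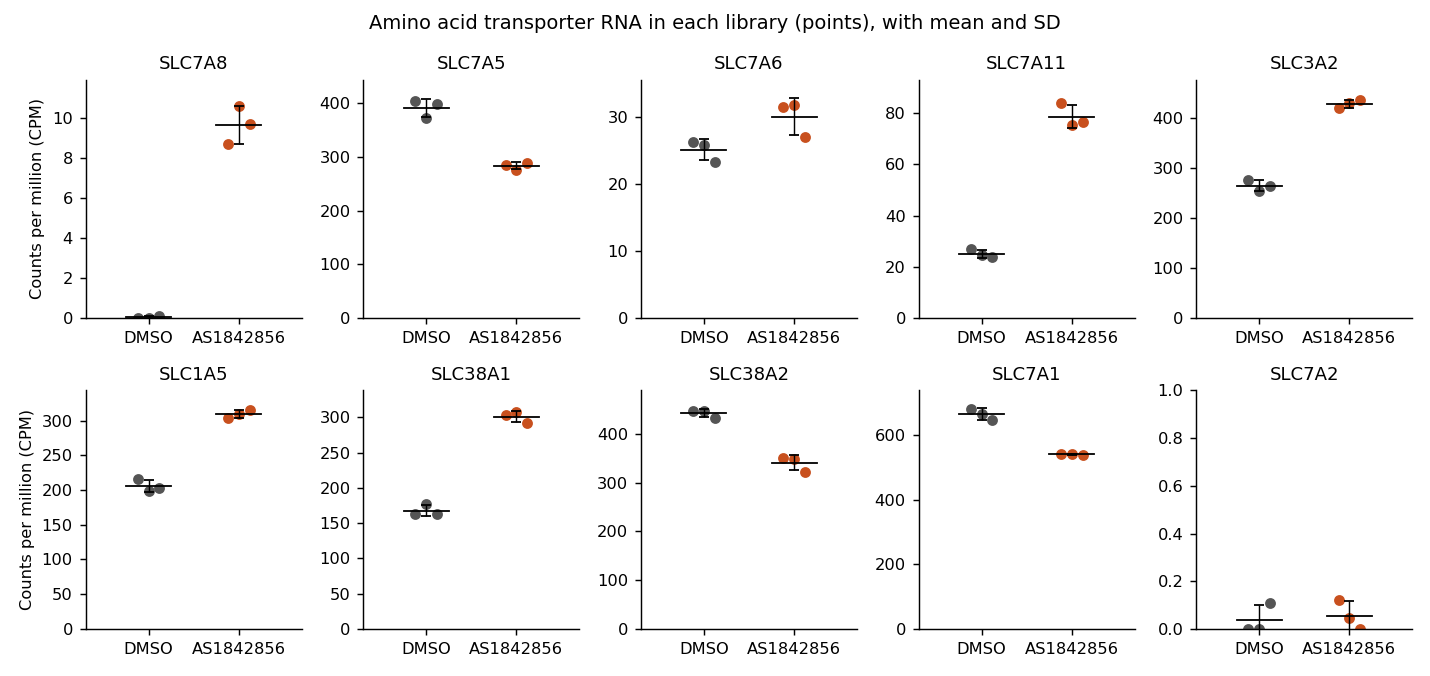
Each panel shows 1 transporter gene, with CPM on a linear vertical axis from 0 and a point for each of the 3 DMSO (grey) and 3 AS1842856 (orange) libraries; horizontal bars are means and whiskers are SD. SLC7A8 goes from at most 0.108 CPM to 8.70 CPM or more, and SLC7A2 stays at or below 0.12 CPM in all 6 libraries.

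Of the 10 genes, 9 passed the filter on low counts. All 9 had an edgeR adjusted p under 0.05, where 56.0% of all tested genes did. With AS1842856, 6 were higher, where 27.6% of all tested genes were higher, and 3 were lower, where 28.4% were lower. In all 9 the 3 CPM values of the groups did not overlap, which held for 59.9% of tested genes. Called changes reached 1 or more as log2 fold change for SLC7A8 and SLC7A11, and for 10.6% of tested genes. The median log2 fold change was 0.58 over the 9 genes and 0.00 over all tested genes. Nothing is read from these counts, since the same contrast chose the genes.

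Among the other light chains, SLC7A5 encodes LAT1, the main exchanger of leucine and other large neutral amino acids in many tumor lines. SLC7A5 was at 403, 372 and 398 CPM with DMSO and at 284, 276 and 289 CPM with AS1842856. All 3 treated libraries were below all 3 controls, and the log2 fold change was -0.47 (SE 0.04). SLC7A5 and SLC7A8 thus stood in opposite directions. SLC7A5 has copies elsewhere in the genome, of which SLC7A5P1 had 0.508% as many counts and SLC7A5P2 had 0.

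SLC7A11 encodes xCT, which brings in cystine in exchange for glutamate. It was at 26.9, 24.8 and 23.9 CPM with DMSO and at 83.9, 75.4 and 76.6 CPM with AS1842856. The treated libraries were all above the controls, with a log2 fold change of 1.64 (SE 0.06), or 3.11-fold. SLC7A11 had the next largest increase after SLC7A8 among the 9 genes. Its antisense gene SLC7A11-AS1 had 0.0678% as many counts.

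SLC7A6 encodes y+LAT2, which exchanges cationic for neutral amino acids. It was at 26.2, 25.7 and 23.3 CPM with DMSO and at 31.4, 31.7 and 26.9 CPM with AS1842856. The groups did not overlap, although the lowest treated library was close to the highest control, and the log2 fold change was 0.26 (SE 0.08). Its exons share 3371 bases with SLC7A6OS on the opposite strand, which had 34.9% as many counts and a log2 fold change of 0.43. Whether counting used strand is not given in the sources used here, so the value of SLC7A6 is uncertain.

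The heavy chain SLC3A2 was at 277, 254 and 265 CPM with DMSO and at 421, 431 and 436 CPM with AS1842856. All treated libraries were higher, with a log2 fold change of 0.69 (SE 0.04). Its direction was that of SLC7A11, SLC7A8 and SLC7A6 and the opposite of that of SLC7A5.

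The 3 carriers for glutamine moved in different directions. SLC1A5 (ASCT2), a sodium-coupled exchanger of small neutral amino acids, was at 216, 199 and 203 CPM with DMSO and at 304, 309 and 315 CPM with AS1842856. Its groups did not overlap, and its log2 fold change was 0.58 (SE 0.04). SLC38A1 (SNAT1), which takes up glutamine with sodium, was at 163, 177 and 163 CPM with DMSO and at 303, 307 and 292 CPM with AS1842856, a log2 fold change of 0.84 (SE 0.04). SLC38A2 (SNAT2), a close relative known to be induced when amino acids are scarce, was at 448, 447 and 433 CPM with DMSO and at 351, 349 and 323 CPM with AS1842856. Here the treated libraries were all lower, with a log2 fold change of -0.38 (SE 0.04). SLC38A1 and SLC38A2 are neighbors on chromosome 12, 88.2 kb apart, and their RNA levels stood in opposite directions.

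For cationic amino acids, SLC7A1 (CAT1) carries arginine and lysine. It was at 683, 667 and 648 CPM with DMSO and at 542, 541 and 540 CPM with AS1842856, a log2 fold change of -0.30 (SE 0.03). All treated libraries were lower, and they were within 2 CPM of each other. SLC7A2 (CAT2), the inducible carrier of the same amino acids, had 0, 0 and 2 counts with DMSO and 2, 1 and 0 counts with AS1842856. It was below the filter and no difference was detectable at this depth.

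ATF4 is a transcription factor made when amino acids are short, and several transporter genes are known targets of it. RefSeq windows were found for 8 of the 10 genes, 16 windows in all. The ATF4 letters were in 4 of these 16 windows and in 3.62% of all 35116 windows. Their surroundings are shown because all 4 belong to genes whose levels are described above, with the match in capitals.
SLC7A1, chr13:29595663-29595692, minus strand: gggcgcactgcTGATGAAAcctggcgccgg
SLC3A2, chr11:62881719-62881748, plus strand: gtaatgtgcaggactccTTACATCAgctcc
SLC1A5, chr19:46784893-46784922, minus strand: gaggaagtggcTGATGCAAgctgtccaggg
SLC38A1, chr12:46266502-46266531, minus strand: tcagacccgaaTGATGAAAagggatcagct
The match in SLC3A2 reads on the opposite strand. Bases were counted from the start site of the window as base 1. The first matching base was at 8 in SLC7A1, 38 in SLC3A2, -97 in SLC1A5 and -4 in SLC38A1. In order along each gene, these were start 1 of SLC7A1, start 3 of SLC3A2 and of SLC1A5, and start 2 of SLC38A1. Only the SLC7A1 match was thus at the first start that RefSeq gives. Use of these starts in BT549 cells was not tested. Of these 4 genes, SLC3A2, SLC1A5 and SLC38A1 were higher with AS1842856 and SLC7A1 was lower. The FOXO letters were in 1 window, of SLC1A5, and in 3.42% of all windows. The TCF/LEF letters were also in 1 window, of SLC3A2, and in 12.8% of all windows. The antioxidant response letters were in 10 of the 16 windows and in 41.8% of all windows. These 10 windows belong to 6 of the 8 genes and are not independent. The windows at starts 2 and 3 of SLC7A8 overlap and share a match. A match is a description of the letters and not a bound site.

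Levels of different genes were compared per length, as the deposited FPKM (read counts scaled to gene length and library size). With DMSO the order of mean FPKM was SLC7A1 at 86.0 ± 2.30 (SD, n = 3), SLC7A5 at 82.0 ± 3.66, SLC38A2 at 66.6 ± 1.26, SLC1A5 at 61.5 ± 2.81 and SLC3A2 at 51.0 ± 2.25. SLC38A1 followed at 16.7 ± 0.764, then SLC7A6 at 3.28 ± 0.203, SLC7A11 at 2.60 ± 0.159 and SLC7A8 at 0.00595 ± 0.0103. Only SLC7A1 and SLC7A5 were neighbors in this order with overlapping libraries. With AS1842856 the order of mean FPKM was SLC1A5 at 92.2 ± 1.46, SLC3A2 at 82.4 ± 1.44, SLC7A1 at 69.9 ± 0.208, SLC7A5 at 59.2 ± 1.30 and SLC38A2 at 51.3 ± 2.42. SLC38A1 was at 29.8 ± 0.794, SLC7A11 at 8.10 ± 0.484, SLC7A6 at 3.93 ± 0.353 and SLC7A8 at 1.60 ± 0.157, and no neighbors overlapped. On this scale SLC1A5 and SLC3A2 thus moved to the top of the order, and 29 of 36 pairs of genes kept their order. The order between genes rests on annotated exon lengths, and other transcript lengths could change it. Even with AS1842856, SLC7A8 was the lowest of the 9.

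**Figure D2:**
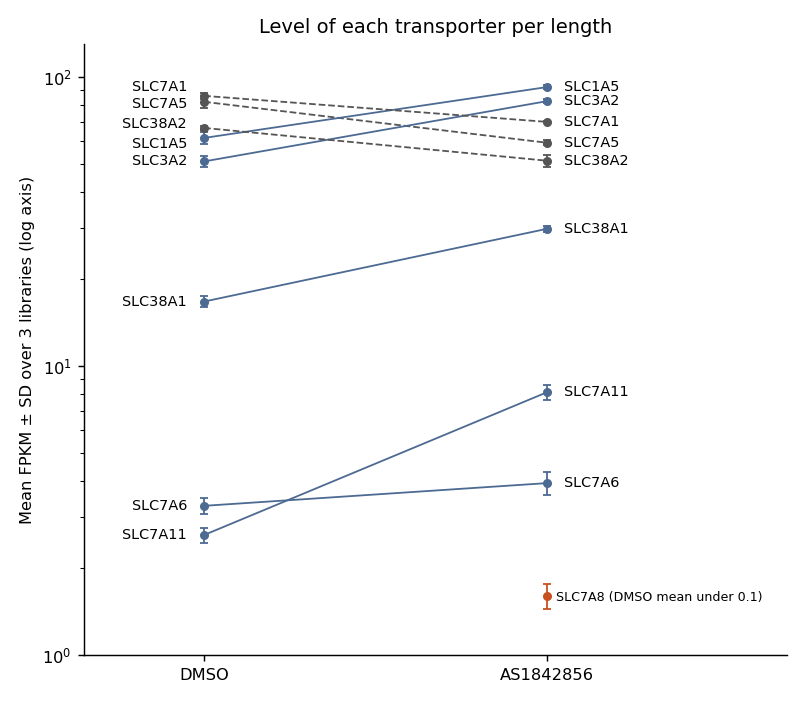
Mean FPKM with SD over 3 libraries (log vertical axis) for DMSO and AS1842856, with solid lines for genes higher and dashed lines for genes lower with AS1842856. SLC1A5 and SLC3A2 cross SLC7A1, SLC7A5 and SLC38A2, and the SLC7A8 point with DMSO, at 0.00595, is below the axis.

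Because light chains share 1 heavy chain, their FPKM were also expressed as shares of the sum over SLC7A5, SLC7A6, SLC7A7, SLC7A8, SLC7A10 and SLC7A11. These sums and ratios were chosen after the values were seen. SLC7A5 made up 92.6%, 92.2% and 93.0% of light chain RNA with DMSO and 78.3%, 78.6% and 80.2% with AS1842856. SLC7A11 went from 2.93% ± 0.164 (SD, n = 3) to 10.8% ± 0.507 and SLC7A8 from 0.00664% ± 0.0115 to 2.14% ± 0.245. SLC7A5 was the main light chain in every library. SLC7A10 had 0% in 5 libraries and 0.0767% in DMSO replicate C. SLC7A6 made up 3.71% ± 0.290 and then 5.24% ± 0.503, and SLC7A7 0.703% ± 0.0912 and then 2.77% ± 0.220.

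The summed light chain FPKM was 88.5 ± 3.67 with DMSO and 74.9 ± 1.26 with AS1842856. The ratio of SLC3A2 to that sum was 0.583, 0.578 and 0.568 with DMSO and 1.06, 1.13 and 1.11 with AS1842856. On this scale heavy chain RNA was thus below the light chain sum in each control and above it in each treated library. FPKM here was close to CPM per annotated exon length, 5178 bases for SLC3A2 and 4745 for SLC7A5. Lengths of the transcripts used in these cells were not tested, and whether the ratio lies above or below 1 depends on them. The summed FPKM of SLC1A5, SLC38A1 and SLC38A2 was 145 ± 3.31 with DMSO and 173 ± 1.94 with AS1842856. Within it SLC38A2 made up 46.0% ± 0.592 and then 29.6% ± 1.11, while SLC1A5 made up 42.5% ± 1.21 and then 53.2% ± 1.36. The ratio of SLC38A1 to SLC38A2 was 0.241, 0.261 and 0.249 with DMSO and 0.568, 0.580 and 0.596 with AS1842856.

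**Figure D3:**
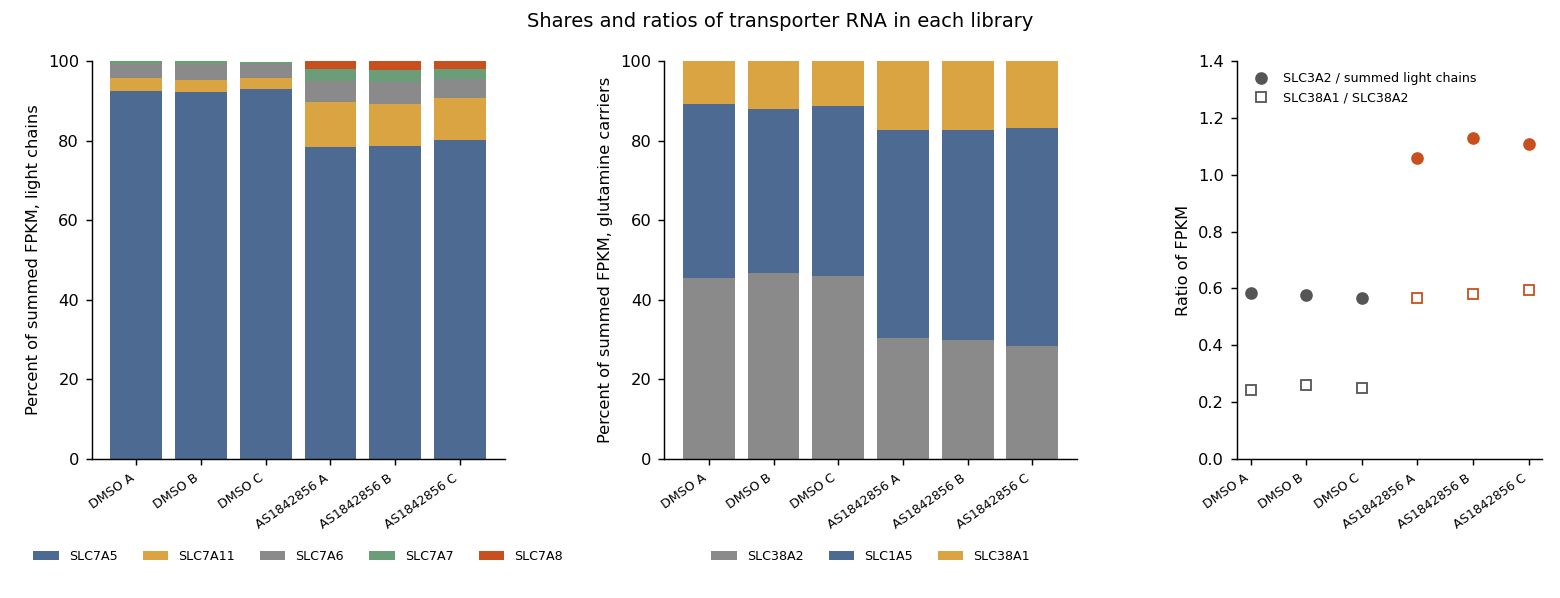
Stacked bars give, for each of the 6 libraries, the percent of summed FPKM from each light chain gene (left) and each glutamine carrier (middle), and points give 2 FPKM ratios (right; grey DMSO, orange AS1842856). SLC7A5 drops from about 92.6% to 79.0% of light chain RNA, and SLC3A2 over the light chain sum goes from 0.576 to 1.10.

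The remaining plasma membrane and lysosomal amino acid transporters formed a list of 43 genes. Of these 20 passed the filter, 8 rose, 7 fell and 5 did not pass the test, with a median log2 fold change of -0.04. Among all tested genes 56.0% passed, 27.6% higher and 28.4% lower. A further 18 had at most 3 counts in every library. Among the genes that passed the filter, the largest increase was that of SLC7A7, whose product y+LAT1 is also a partner of SLC3A2. SLC7A7 was at 2.87, 3.45 and 3.28 CPM with DMSO and at 11.6, 10.7 and 9.87 CPM with AS1842856, a log2 fold change of 1.75 (SE 0.15, edgeR adjusted p = 3.05e-24). SLC7A7 lies 295 kb from SLC7A8 on chromosome 14.

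SLC36A1 and SLC38A7, carriers known from the lysosome, rose by 0.76 (SE 0.07) and 0.70 (SE 0.08) on the log2 scale. The glutamate transporter gene SLC1A6 fell by 3.67 (SE 0.29) on the log2 scale, from between 4.82 and 6.01 CPM to between 0.350 and 0.561 CPM. SLC6A9, which carries glycine, was at 47.1, 41.3 and 39.4 CPM with DMSO and at 16.0, 16.1 and 15.6 CPM with AS1842856, a log2 fold change of -1.43 (SE 0.08). SLC43A3 fell by 1.11 (SE 0.08) on the log2 scale, and its product is better known as a carrier of purine bases than of amino acids.

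**Figure D4:**
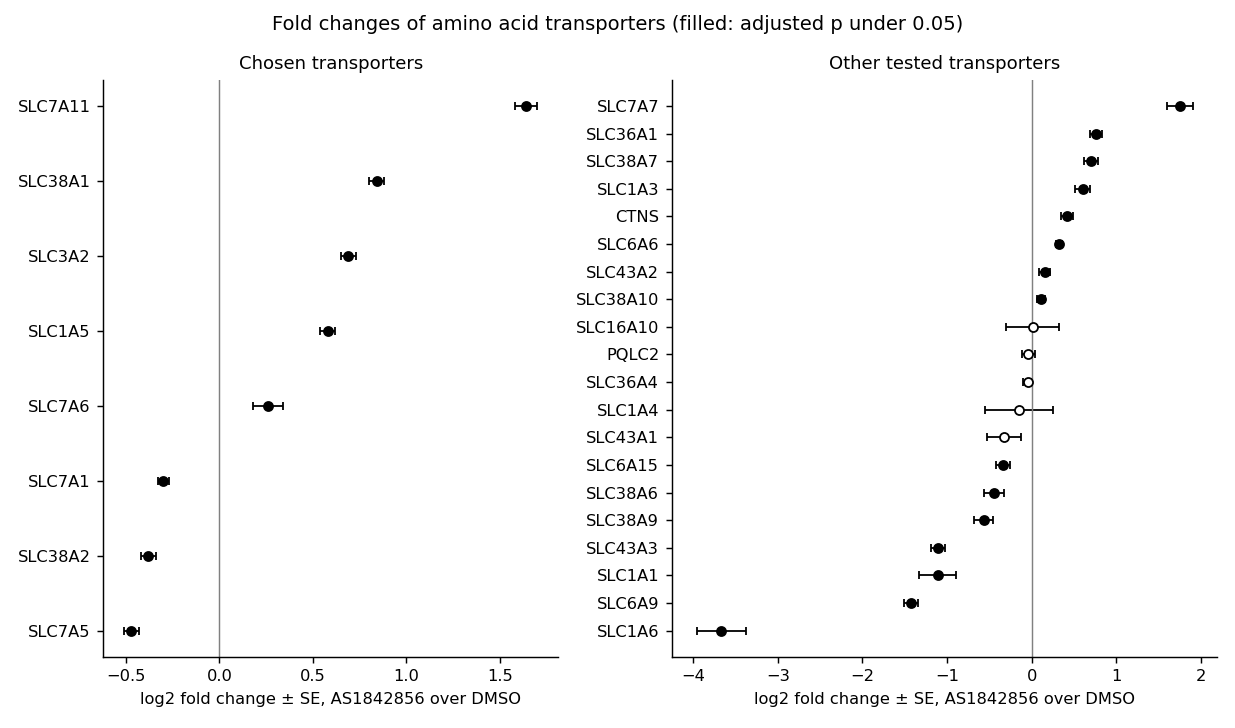
Log2 fold change of AS1842856 over DMSO with SE from edgeR for 8 of the chosen transporters (left; SLC7A8, at 7.84, is left out because its DMSO group holds 2 counts) and for the 20 other transporters tested (right), with different horizontal scales. Filled points have an adjusted p under 0.05, and SLC7A7 at 1.75 and SLC1A6 at -3.67 are the extremes of the right panel.

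Of 26 genes of the metabolism of the carried amino acids and of glutathione, 20 were tested, 10 rose and 4 fell. This stands against 27.6% higher and 28.4% lower among all tested genes. The median log2 fold change of the list was 0.13. CTH, which makes cysteine from cystathionine, rose by 1.80 (SE 0.16) on the log2 scale, from between 2.46 and 3.26 CPM to between 8.88 and 11.3 CPM. GLUL, or glutamine synthetase, was at 81.3, 78.3 and 85.0 CPM with DMSO and at 213, 209 and 222 CPM with AS1842856, a log2 fold change of 1.39 (SE 0.04). All 3 treated libraries were above the controls. CHAC1, which degrades glutathione, rose by 0.74 (SE 0.14), while GPX4, which uses glutathione to reduce lipid peroxides, fell by 0.83 (SE 0.04) on the log2 scale. BCAT2, the mitochondrial transaminase of branched-chain amino acids, fell by 0.45 (SE 0.10) on the log2 scale.

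All 21 genes of the amino acid response list (ATF4 and genes it acts with or on) were tested, 11 rose and 2 fell, against 27.6% and 28.4% of all tested genes, with a median log2 fold change of 0.24. ATF4 itself was at 366, 344 and 355 CPM with DMSO and at 423, 446 and 447 CPM with AS1842856, a log2 fold change of 0.30 (SE 0.04). The largest increases were those of the stress-induced factor ATF3 (1.14, SE 0.09), the leucine-binding protein gene SESN2 (0.76, SE 0.08) and the secreted glycoprotein gene STC2 (0.74, SE 0.04), all as log2 fold changes. EIF2AK4, which encodes the amino acid sensing kinase GCN2, fell by 0.41 (SE 0.05), and the transcription factor gene CEBPB fell by 0.14 (SE 0.04) on the log2 scale. The change of CEBPB did not pass the test without DMSO replicate A (-0.10) or in the limma fit of log2(FPKM + 1) with no filter (-0.13). Also in this list, CHAC1 rose by 0.74 (SE 0.14), PHGDH by 0.55 (SE 0.04), SHMT2 by 0.51 (SE 0.04) and DDIT4 by 0.51 (SE 0.05). In the list 8 genes did not pass. Among them were the ATF4 targets ASNS, DDIT3 and TRIB3, with log2 fold changes of 0.52 (SE 0.25), 0.16 (SE 0.10) and 0.08 (SE 0.09). ASNS was at 3.25 CPM or below in every library, and its groups did not overlap.

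A list of 31 genes covered mTORC1 itself and amino acid sensing and activation upstream of it. Of these 30 were tested, 9 rose and 5 fell, with a median log2 fold change of 0.04. A share of 56.0% of all tested genes passed in either direction. Among genes averaging 1 CPM or more, the largest increases beside SESN2 were those of CASTOR2 and DEPDC5. CASTOR2, a relative of the arginine sensor CASTOR1, rose by 1.0 (SE 0.19) on the log2 scale. The GATOR1 subunit gene DEPDC5 rose by 0.40 (SE 0.12). RRAGD, at 1.27 CPM or below and 8 to 29 counts in every library, rose by 0.92 (SE 0.40, edgeR adjusted p = 0.0393). The call of RRAGD was not followed singly under other settings. The call of DEPDC5 was lost without DMSO replicate B, where its log2 fold change was 0.27, and in all 3 limma fits of log2 FPKM. SLC38A9, the arginine sensor of the lysosome, fell by 0.57 (SE 0.11) and BMT2, the sensor of S-adenosylmethionine, by 0.57 (SE 0.11) on the log2 scale. RHEB, the small GTPase that switches mTORC1 on, was at 176, 193 and 186 CPM with DMSO and at 135, 127 and 132 CPM with AS1842856, a log2 fold change of -0.49 (SE 0.04). MTOR itself was at 154 to 169 CPM with DMSO and at 157 to 159 CPM with AS1842856.

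Since LAT2 also carries thyroid hormone, 10 genes of its transport and response were examined, of which 6 were tested, 2 rose and 3 fell, with a median log2 fold change of -0.36. Over all tested genes these shares were 27.6% and 28.4%. The receptor genes changed in opposite directions. THRB rose by 1.55 (SE 0.30) on the log2 scale, from between 0.865 and 1.04 CPM to between 2.10 and 3.65 CPM. THRA fell by 0.97 (SE 0.11) on the log2 scale, from between 17.0 and 18.9 CPM to between 8.22 and 9.70 CPM. The organic anion carrier gene SLCO4A1 fell by 0.74 (SE 0.07) on the log2 scale. DIO2, which activates thyroid hormone, fell by 2.05 (SE 0.40) on the log2 scale, at 1.91 CPM or below in every library.

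Within 200 kb of SLC7A8 the annotation held 34 other genes, 16 of them with at most 3 counts in every library. Of 15 tested, 5 rose, 3 fell and 7 did not pass the test, where 56.0% of all tested genes passed, and the median log2 fold change was 0.17. The increases were those of C14orf93 (0.51), BCL2L2 (0.50), CDH24 (0.46), PRMT5 (0.38) and PABPN1 (0.27), as log2 fold changes. AJUBA fell by 0.43 and ACIN1 by 0.11 on the log2 scale, and the CPM values of ACIN1 overlapped between the groups. The call of ACIN1 was lost without DMSO replicate C, without AS1842856 replicate C and in all 3 limma fits of log2 FPKM, and that of C14orf93 in the limma fit of log2(FPKM + 1) with no filter (0.31). SLC22A17 fell by 2.08 (SE 0.55) on the log2 scale from below 1 CPM, with 1, 9 and 1 counts left with AS1842856. Its log2 fold change was -3.68 without AS1842856 replicate B. BCL2L2 and PABPN1 share exons with the readthrough gene BCL2L2-PABPN1, so their reads could be split. HAUS4, AL132780.2, PSMB5, C14orf119, HOMEZ, PPP1R3E and BCL2L2-PABPN1 had log2 fold changes between 0.01 and 0.55 that did not pass the test. The nearest genes on either side, RNF212B at 1.64 kb and CEBPE at 5.68 kb, were below the filter.

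**Figure D5:**
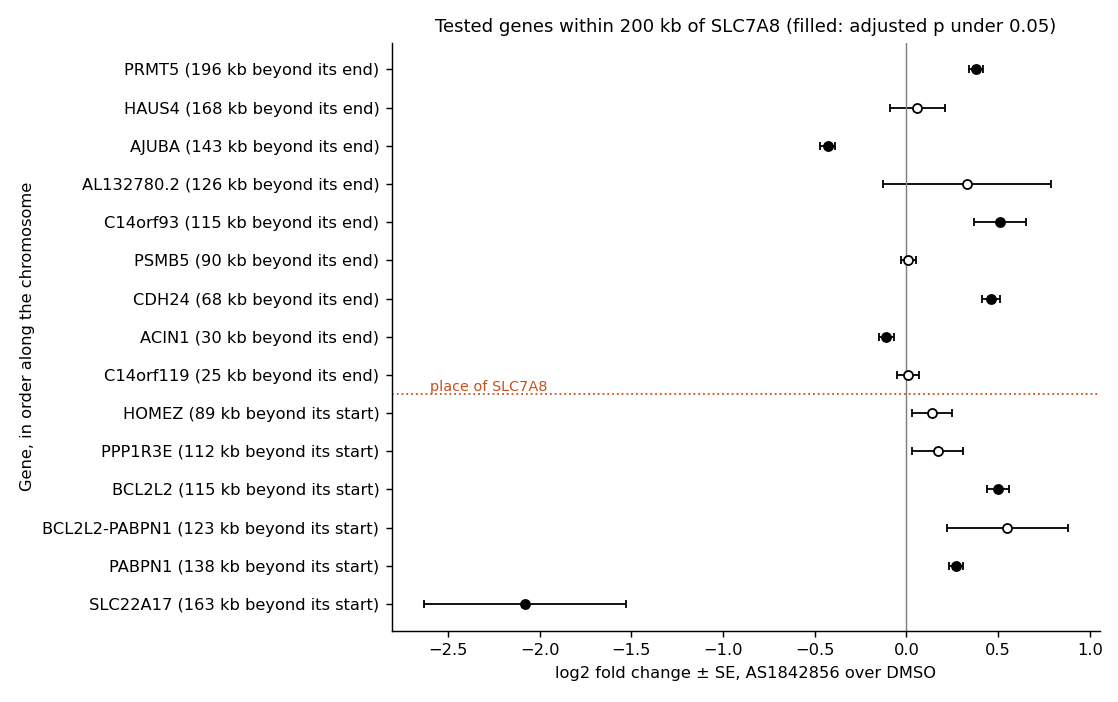
Log2 fold change of AS1842856 over DMSO with SE for the 15 tested genes within 200 kb of SLC7A8, in order along the chromosome, with filled points for an adjusted p under 0.05. The increases stay at or below 0.51 among filled points, against 7.84 for SLC7A8, and SLC22A17 is at -2.08.

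The genes whose pattern was most like that of SLC7A8 were found by the root mean square difference of centered log2(CPM + 0.5) over the 6 libraries. They were NKD1 (0.171), NEBL (0.177), KANK4 (0.184), ADAMTS14 (0.190) and AXIN2 (0.203). On this scale the treated mean stood 4.25 above the control mean for SLC7A8 and between 3.99 and 4.53 above it for these 5. The added 0.5 CPM limits this value for genes near 0 with DMSO, so the likeness depends on it. The fitted log2 fold change was 7.84 for SLC7A8 and 5.87 for NKD1. For NEBL the fit gave 4.73, for KANK4 4.67, for ADAMTS14 4.14 and for AXIN2 4.64. NKD1 and AXIN2 encode inhibitors in the WNT pathway. NKD1 was at 0.273, 0.130 and 0.323 CPM with DMSO and at 15.5, 13.9 and 15.9 CPM with AS1842856, so that, like SLC7A8, it was close to 0 before treatment. AXIN2 was at 3.37, 2.41 and 4.31 CPM with DMSO and at 83.2, 85.1 and 87.1 CPM with AS1842856. The likeness reflects mainly the difference between the 2 groups and is a description of 6 libraries.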

How the data were processed

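RNA-Seq was performed in BT549 cells, with 3 DMSO control and 3 AS1842856 libraries grouped by the sample labels. Reads were mapped with STAR per the study's methods. Per the labels' processing notes, CASAVA, Bowtie 0.12.2 and GRCh38 (hg38) were used. The counting tool and use of strand are not given in the sources used here. The authors deposited raw counts per gene and FPKM values for each library, the latter for 25015 genes. All 58735 gene identifiers matched GENCODE release 29.

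For the counts, edgeR 4.0.16 was run in R 4.3.3. The filterByExpr function (minimum count 10, minimum total 15) left 14338 genes. After TMM scaling, AS1842856 and DMSO libraries were compared with the quasi-likelihood test (glmQLFit, robust, then glmQLFTest) and no block. Benjamini-Hochberg adjusted p-values covered all 14338 genes, with a threshold of 0.05, and measure only the spread between these libraries. The SE is the log2 fold change divided by the square root of F. Depth was 15289500 to 22981832 counts, and the common biological coefficient of variation was 0.0374. The script was tested on simulated data. The alternatives used DESeq2 1.42.0, limma 3.58.1 on log2(FPKM + 1) and log2(FPKM + 0.1), other scaling and filters, the replicate block and each library left out.

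The transporter genes and gene lists were chosen with earlier results of these data known. ASNS, CHAC1, SESN2, SLC38A9 and SLC16A10 each stand in 2 lists. All 10 transporters are named. From each other list, up to 3 increases and 3 decreases were named, taking the largest of those that passed the test, averaged 1 CPM or more and did not overlap between groups. Results of some single genes that this rule names are not reported here, though list counts include them. Neighbors of SLC7A8, the 5 nearest patterns and FOXO1 were also named. ATF4, MTOR, ASNS, DDIT3, TRIB3, PHGDH, SHMT2, DDIT4 and RRAGD were named after their values were seen. Promoter windows came from RefSeq (GRCh38.p14), with none found for SLC7A11 and SLC7A2.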

Additional observations from a re-analysis of the deposited data

How the results depend on the processing

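Counts of called genes in each list stayed within 1.5 times of the reported ones, except for these 4 values. Under limma on log2(FPKM + 1) with no filter, 9 genes of the mTORC1 list were called rather than 14. With a mean of at least 50 counts, or limma on log2(FPKM + 1) or log2(FPKM + 0.1) with a mean FPKM of at least 0.5, 3 thyroid hormone genes were called rather than 5, since these filters removed low genes of that list. Over all genes, between 6523 and 8030 were called under settings that kept every library and between 7427 and 7678 with a library left out. Of the 9 transporters tested, 9 were called with any library left out and 8 or 9 under the other settings, and no direction reversed. The fitted change of SLC7A8 moved the most, to between 1.37 and 8.08 under other settings and to between 7.20 and 10.52 with a library left out, while that of SLC7A11 was 1.34 to 1.69. Same-letter replicates did not deviate together (correlations 0.0420, -0.0120 and -0.00332), so the letters were not taken as pairs. With the replicate block 7862 genes were called and SLC7A8 had 7.82, and all 9 transporters were still called. On CPM per annotated exon length, 36 of 36 pairs had the same order, and the light chain shares, tried on that scale after seeing the data, were the same. Both scales divide the same counts by nearly the same lengths, so this says nothing about stability. Depth limits SLC7A8 with DMSO and SLC7A2, where 3 counts or fewer per group were found, and 3 libraries of 1 line per group limit all values.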
